A study of Mus musculus with 38 samples.

Results

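Acod1 (aconitate decarboxylase 1, older name Irg1, ENSMUSG00000022126) was followed in mouse bone marrow-derived macrophages across 8 groups of RNA-seq libraries and 4 lists of chromatin peaks. It was chosen by its symbol and is 1 of the 11184 genes with deposited expression values. The choice was made with its values in these libraries known, so its levels, ranks and differences are given as a description and carry no p-value.

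The enzyme made from Acod1 sits in mitochondria and converts cis-aconitate, an intermediate of the tricarboxylic acid (TCA) cycle, into itaconate. Itaconate inhibits succinate dehydrogenase, blocks the glyoxylate pathway of some bacteria and modifies cysteines of host proteins, among them KEAP1, the protein that holds the antioxidant factor NRF2 in check. Acod1 is known as a gene that macrophages switch on strongly after lipopolysaccharide or interferon.

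The cells came from C57BL/6 mice. The RNA groups had 4 libraries each. LA 8h, LA 16h and LA 24h received lipopolysaccharide (LPS, 5 ng/ml) plus interferon-gamma (IFNg, 12 ng/ml), which drive the inflammatory M1 state, and lactic acid 4 h later. The time course without lactic acid comprised 0h, before stimulation, and 4h, 8h, 16h and 24h of the same LPS and IFNg. No lactic acid concentration is given, and the times of the lactic acid groups are read here as times after LPS and IFNg. Chromatin immunoprecipitation covered lactylation (H3K18la) and acetylation (H3K18ac) of lysine 18 of histone H3, with 1 library per mark in M1 cells (24 h of LPS and IFNg) and 1 per mark in unstimulated M0 cells, from MNase-digested chromatin with a spike-in. The labels do not say whether RNA libraries of a group came from separate mice or cultures, so p-values measure only the spread between these libraries, which may be technical. In bulk RNA, fewer cells that express a gene and less RNA per cell cannot be told apart.

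Depth, as reads in listed genes, ran from 60.6 to 103.9 M per library (M, 1e6 reads). All 10 macrophage markers looked at (among them Adgre1, Csf1r and Lyz2) were listed, with a summed level of at least 10937.1 RPKM (reads per kilobase of gene, scaled to library size) in every library. Of the 10 neutrophil markers 5 were listed (S100a8, S100a9, Camp, Ltf and Ngp), while Ly6g, Mpo, Elane, Cxcr2 and Retnlg were not. The neutrophil sum moved with time as Acod1 did, with 10.4 to 16.1 RPKM before stimulation, 55.4 to 84.2 RPKM at 4h, 56.3 to 70.4 RPKM at 8h, 29.5 to 52.5 RPKM at 16h and, at the end, 21.8 to 34.4 RPKM. Its part in the results below was not tested. The 2 listed dendritic cell markers, the 1 listed lymphocyte marker and the 6 listed stromal or endothelial markers summed to at most 3.17, 0.771 and 3.53 RPKM in any library.

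Acod1 lies on mouse chromosome 14 at chr14:103047012-103056573 on the plus strand (GRCm38.p6, RefSeq). The 250 bases before its start are shown because the results below turn on a chromatin mark placed there and on a response to LPS and IFNg. Capitals mark, from left to right, a kB-like palindrome, a core of the element bound by interferon regulatory factors (IRF), and a TATA box.

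Acod1, chr14:103046762-103047011, plus strand: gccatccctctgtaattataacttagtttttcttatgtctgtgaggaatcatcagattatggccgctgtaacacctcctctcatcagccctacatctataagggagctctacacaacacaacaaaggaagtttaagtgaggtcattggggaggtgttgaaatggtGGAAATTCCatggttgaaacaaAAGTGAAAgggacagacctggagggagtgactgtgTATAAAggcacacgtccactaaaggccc

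The palindrome, searched as GGAANTTCC, lies at -85 to -77 from the start and is held by 0.813% of 32851 RefSeq promoter windows of the same 250 bases; it was searched after this sequence had been read. The IRF core (AANNGAAA on either strand) lies at -63 to -56, and 21.3% of windows hold one. The TATA box (TATAAA on the coding strand only) lies at -28 to -23, and 7.59% of windows hold one. A window with the longer interferon-stimulated response element core (GAAA, any 2 bases, GAAA) always holds an IRF core. That longer core, the NF-kB consensus, the GAS element TTCNNNGAA, the C/EBP consensus TTGCNNAA, the AP-1 site TGANTCA and the E-box CACGTG had no match, which says only that these letters are not in this window. Its share of G and C was 44.4%, against a median of 52.4% over all windows, and it held 2 CpG steps, against a median of 6. A match is a description of letters and not a bound site.

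Acod1 was low before stimulation and among the most abundant listed transcripts 4 h later, after which it fell away in 3 unequal steps. The 4 libraries at 0h gave 8.97, 7.59, 6.29 and 6.76 RPKM. Those at 4h gave 3405.3, 3289.8, 3231.2 and 3320.9 RPKM, and those at 8h gave 2760.9, 2635.1, 2930.6 and 2764.8 RPKM. Every library at 4h lay above every library at 8h, by a margin that is small beside the distance of both from 0h. At 16h the values were 598.2, 520.2, 542.2 and 624.0 RPKM, and at 24h they were 282.7, 302.1, 322.2 and 267.7 RPKM. No library of 1 time overlapped with a library of another time.

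The mean was 7.40 ± 1.18 RPKM before stimulation, 3311.8 ± 72.6 RPKM after 4 h, 2772.8 ± 121.2 RPKM after 8 h, 571.1 ± 48.1 RPKM after 16 h and 293.7 ± 23.7 RPKM after 24 h (SD, n = 4 each). By mean RPKM, which is per length and so can be ranked over genes, Acod1 stood 4504th of 11184 listed genes before stimulation. It was 16th at 4h and 15th at 8h, then 86th at 16h and 186th by the end. For scale, the highest listed gene at 4h was Fth1, the ferritin heavy chain, at 23365.0 RPKM. Reads of Acod1 made up 0.78 to 0.845% of all reads in listed genes at 4h, against 0.0022 to 0.00312% at 0h. The 4h libraries held 681722 to 810841 Acod1 reads and the 0h libraries 1472 to 2020. The coefficient of variation between libraries of a group lay between 2.19% at 4h and 15.9% at 0h.

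**Figure D1:**
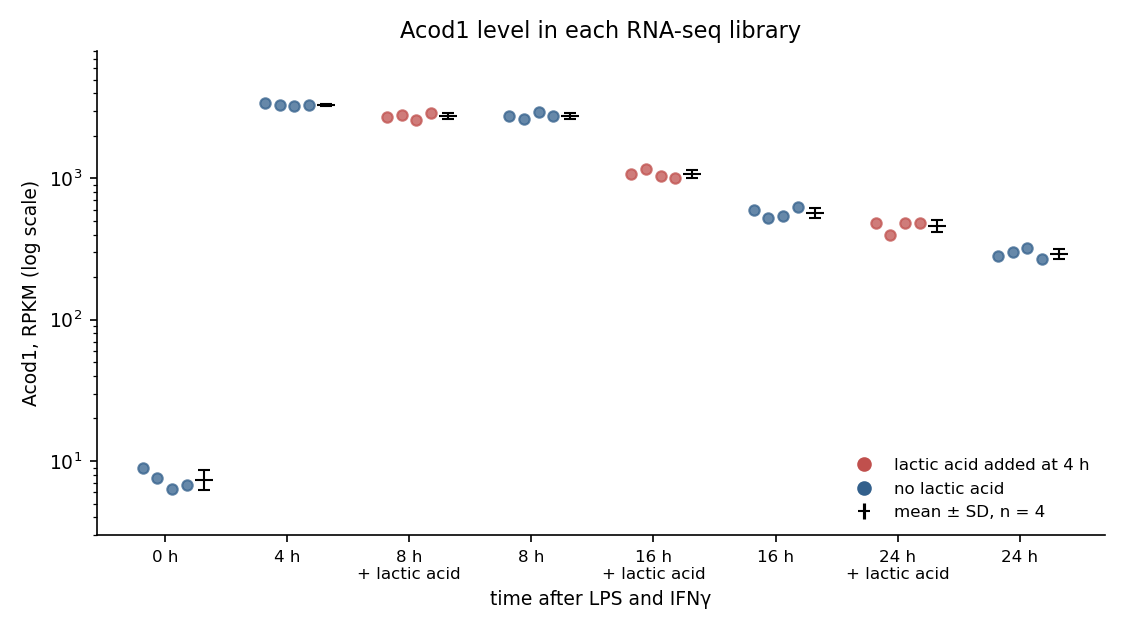
Acod1 level in RPKM (log axis) in each of the 32 RNA libraries, by group; points are libraries and black marks the mean ± SD of 4. The 0h libraries sit between 6.29 and 8.97 RPKM, the level is highest at 4h, and the lactic acid groups at 16 and 24 h sit above the groups of the same time without it.

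On the log2(RPKM + 1) scale the difference of 4h from 0h was 8.63 ± 0.082 (SE from the limma model over all 32 libraries), the 5th largest increase of 9942 genes tested (the 14th with a pseudocount of 0.1 RPKM). The share of tested genes with all 4 libraries at 4h above all 4 at 0h was 42.6%, so separation alone was common. It was 40.8% for 8h, 38.0% for 16h and 34.2% for 24h over 0h. The differences from the same 0h libraries were 8.38 ± 0.082 for 8h, 6.10 ± 0.082 for 16h and 5.14 ± 0.082 for 24h, and they stood 6th, 9th and 8th from the top, or 13th, 20th and 25th with a pseudocount of 0.1 RPKM. With voom on the reads recovered from the RPKM values, a fit added after the data were seen, the ranks at 4h, 8h, 16h and 24h were 40th, 37th, 39th and 48th. The pseudocount of 1 RPKM pulls these values down a little, and the authors' deposited table gives log2 fold changes over 0h of 8.81, 8.55, 6.27 and 5.31 at the same times. At 24h Acod1 was thus still 39.7 times its 0h mean while having come down to 8.87% of its 4h mean.

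The fall was not even over time. The 8h mean was 83.7% of the 4h mean, a log2 difference of -0.26 ± 0.082. From there the 16h mean was 20.6% of the 8h mean (log2 difference -2.28 ± 0.082), and the 24h mean was 51.4% of the 16h mean (-0.96 ± 0.082). Counted from the largest decrease, Acod1 stood 2952nd of 9942 genes in the step to 8h, 54th in the step to 16h and 37th in the step to 24h, or 120th and 90th in the last 2 with a pseudocount of 0.1 RPKM and 187th and 143rd with voom. All 4 libraries of the later time lay below all 4 of the earlier time in 37.0%, 31.9% and 15.6% of tested genes in these 3 steps.

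With lactic acid Acod1 overlapped with its level without it at 8 h and stood higher at 16 and 24 h. The LA 8h libraries gave 2722.5, 2814.0, 2592.2 and 2898.8 RPKM, a range that overlaps with 2635.1 to 2930.6 RPKM at 8h. The log2 difference of LA 8h from 8h was -0.01 ± 0.082. The LA 16h libraries gave 1070.8, 1170.2, 1037.0 and 1004.8 RPKM, all above the highest 16h library at 624.0 RPKM. The LA 24h libraries gave 481.9, 398.6, 482.7 and 485.3 RPKM, all above the highest 24h library at 322.2 RPKM, with the second library apart from the other 3.

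The mean was 1070.7 ± 71.6 RPKM at LA 16h and 571.1 ± 48.1 RPKM at 16h (SD, n = 4 each), a ratio of 1.87 and a log2 difference of 0.91 ± 0.082, the 43rd largest increase of 9942 genes (the 125th with a pseudocount of 0.1 RPKM and the 177th with voom). It was 462.1 ± 42.3 RPKM at LA 24h and 293.7 ± 23.7 RPKM at 24h, a ratio of 1.57 and a log2 difference of 0.65 ± 0.082, the 238th largest (the 363rd with a pseudocount of 0.1 RPKM and the 407th with voom). All 4 lactic acid libraries lay above all 4 others in 28.4% of tested genes at 16h and in 14.2% at 24h. The difference at 24 h exceeded that at 8 h by 0.66 ± 0.116 on the log2 scale, a contrast in which 62.5% of all tested genes passed limma. When libraries were scaled to their reads in listed genes in place of the authors' effective sizes, the log2 difference of LA 24h from 24h was 0.44 and its excess over that at 8 h was 0.36.

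The steps between the times differed in size between the arms. The LA 16h mean was 38.8% of the LA 8h mean, beside 20.6% for the matching step without lactic acid, and the LA 24h mean was 43.2% of the LA 16h mean, beside 51.4%. At 24 h Acod1 was at 14% of its 4h mean with lactic acid and at 8.87% without. By mean RPKM it stood 12th of the 11184 listed genes at LA 8h, 38th at LA 16h and 150th at LA 24h. Ordered by mean, the groups ran 4h, 8h, LA 8h, LA 16h, 16h, LA 24h, 24h and 0h. Within this order LA 8h and 8h overlapped, and every other pair of neighbours was apart, the closest being 16h (lowest library 520.2 RPKM) and LA 24h (highest 485.3 RPKM). The neutrophil marker sum moved the other way at 16 h, at 18.5 to 25.2 RPKM at LA 16h and 29.5 to 52.5 RPKM at 16h, and so did the macrophage sum, at 17441.2 to 21710.1 RPKM at LA 16h and 23132.3 to 33777.2 RPKM at 16h. A sum leans on its most abundant markers. Of the 10 macrophage markers, 2 rose and 3 fell there (limma adjusted p under 0.05), with a median log2 difference of -0.02. Of all tested genes 30.2% rose and 31.0% fell. The part of these markers in the result was not tested.

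Among 1460 other genes whose group means spanned at least 2 log2 units, those most like Acod1 over the 32 libraries were Socs3, Ehd1, Clec4e, Il1b, Cdc42ep2, Tarm1, AW112010, Mlkl, Il4ra and Sod2, with Pearson r of 0.978 to 0.993 on the log2 scale. All points share the 8 groups, so r mostly follows group means and is given as a description. Socs3, a feedback inhibitor of cytokine receptors, had r of 0.993. Its log2(RPKM + 1) changes over 0h were also near in size, with a root mean square difference from those of Acod1 of 0.72 over 7 groups. Il1b, the precursor of interleukin-1 beta, came next in size at 0.94, while the other 8 differed by 2.19 to 5.27. Il1b and Socs3 averaged 0.628 and 0.833 RPKM at 0h, below the pseudocount of 1 RPKM, which pulls their changes down. The 0h mean was 0.0311% of the 4h mean for Il1b, 0.162% for Socs3 and 0.223% for Acod1. No other pseudocount was tried for this measure. Ranked by Spearman's rho, 0 of these 10 genes were among the 10 highest, and by Pearson r over the 8 group means 8 of 10 were.

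Socs3 averaged 514.0 ± 19.4 RPKM at 4h and 0.833 ± 0.0931 RPKM at 0h (SD, n = 4 each). Against its 4h mean it stood at 51.8%, 15.5% and 11.9% after 8, 16 and 24 h, and with lactic acid at 61.2%, 26.2% and 16.0%. Il1b reached 2020.0 ± 54.9 RPKM at 4h, below Acod1 per length, and declined further, to 5.83% of that at 16h and 2.36% at 24h. Its lactic acid libraries stood at 18.1% and 9.44% at those times. Il1b was higher at LA 16h than at 16h by 1.62 ± 0.217 and at LA 24h than at 24h by 1.93 ± 0.217 on the log2 scale (limma adjusted p of 4e-07 and 2.6e-08), with 4 of 4 lactic acid libraries above the others each time. At 8 h its difference was -0.01 ± 0.217 (limma adjusted p = 0.97). Socs3 differed by 0.76 at LA 16h from 16h and by 0.42 at LA 24h from 24h. The remaining genes most like Acod1 differed less at 16 h, by -0.19 (AW112010) to 0.51 (Cdc42ep2). At 24 h they differed by -0.11 (Il4ra) to 0.36 (Clec4e). Ehd1, next to Socs3 in r, differed by 0.14 and -0.04 at these times.

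Nos2, the inducible nitric oxide synthase and the other classic metabolic gene of M1 cells, took another course. It averaged 435.1 ± 21.4 RPKM at 4h and 0.150 ± 0.0365 RPKM at 0h (SD, n = 4 each), and fell to 1.96% of its 4h mean at 16h. It then rose between 16h and 24h by 1.18 ± 0.126 (limma adjusted p = 8e-09), where Acod1 went on falling. With lactic acid it was higher at each of the 3 times, by 1.01 ± 0.126, 3.50 ± 0.126 and 3.17 ± 0.126 on the log2 scale at 8, 16 and 24 h (limma adjusted p of 6.8e-08, 3.6e-19 and 3.2e-18). At LA 16h it averaged 106.6 ± 15.9 RPKM and at 16h 8.51 ± 1.74 RPKM (SD, n = 4 each). Whether Nos2 and Acod1 differ in their response was not tested. Nos2 and Il1b were chosen with earlier results of these data known, so their p-values are to be read as a description.

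**Figure D2:**
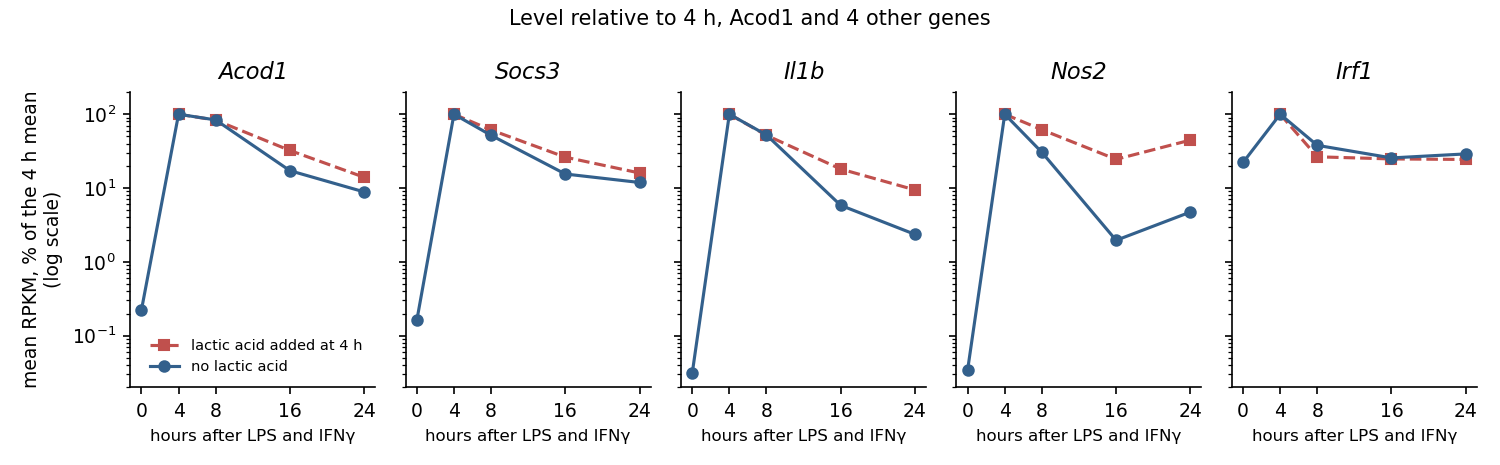
Mean RPKM of Acod1, Socs3, Il1b, Nos2 and Irf1 as a percentage of each gene's 4h mean (log axis) against hours after LPS and IFNg; red squares are groups with lactic acid, drawn from the shared 4h mean, and blue circles those without. Acod1 stood at 83.7% at 8h and 8.87% at 24h, and its lactic acid line leaves the other only after 8 h; Nos2 turns upward after 16h.

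Most of the receptors and factors known to act upstream of Acod1 rose at 4h and fell between 8h and 16h. Of 24 such genes, 20 rose and 3 fell by 4h over 0h, where 42.5% and 42.7% of all tested genes were called in those directions (limma, Benjamini-Hochberg adjusted p under 0.05 over all genes), with a median log2 difference of 1.57 against 0.00 for all tested genes. When libraries were scaled to their reads in listed genes, the all-gene median moved to -0.44 in this comparison and the share of calls that were higher became 26.6%, against 49.9%, while the list counts became 19 and 4. The values given here, on the authors' effective sizes, are thus close to changes relative to the median gene. Nfkbia, the NF-kB inhibitor that NF-kB itself induces, rose by 4.62 ± 0.073. Jak2, a kinase of the IFNg receptor, rose by 3.53 ± 0.067, and Cd14, the LPS co-receptor, by 3.27 ± 0.118. Irf1, a factor of the IFNg response, rose by 2.1 ± 0.067. The 3 that fell were Tfeb, a lysosome regulator, by 1.83 on the log2 scale, Tlr4, the LPS receptor, by 0.98 and Ifngr1, the ligand-binding chain of the IFNg receptor, by 0.89. Tfeb averaged 4.83 RPKM at 0h and 0.641 RPKM at 4h, the latter below the pseudocount of 1 RPKM, which makes its fall look smaller.

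Between 8h and 16h, the step with the steepest fall of Acod1, 17 of these 24 genes fell and 5 rose, against 34.2% and 36.1% of all tested genes. Cebpb, a factor of the acute phase response, was lower by -1.67 ± 0.199 and Nfkbia by -1.50 ± 0.073. Tlr4 and its partner Ly96 rose by 1.38 ± 0.132 and 0.36 ± 0.096. Between 16h and 24h, where Acod1 fell again, 6 of the 24 fell and 5 rose, against 23.3% and 24.1% of all tested genes. With lactic acid at 16 h, 12 of the 24 rose and 1 fell, against 30.2% and 31.0% of all tested genes. Cd14 rose by 1.12 ± 0.118 (1244.8 ± 77.7 RPKM at LA 16h, 570.7 ± 41.3 at 16h) and Cebpb by 0.83 ± 0.199, while Ifngr1 fell by 0.34. Irf1 differed by -0.04 ± 0.067 there (limma adjusted p = 0.59). At 8 h, where Acod1 itself overlapped, 7 of the 24 rose, with Rel, an NF-kB subunit, by 0.63 ± 0.076 and Ticam1, the adaptor TRIF, by 0.52 ± 0.081, and 8 fell, with Ly96 by 0.64 and Irf1 by 0.49, against 32.1% and 36.0% of all tested genes. At 24 h 11 rose and 3 fell, against 25.5% and 21.7%, with Cd14 at 1.2 ± 0.118 and Ticam1 at 0.82 ± 0.081. Under that scaling the all-gene median at 24 h moved to -0.15, the share of calls that were higher became 18.1%, against 54.0%, and the list counts became 3 and 8. With only LA 24h and 24h in the fit they were 6 and 0.

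A further list held 10 genes whose proteins itaconate is reported to affect, directly or, as for Atf3 and Nfkbiz, indirectly. Of these, 7 rose and 1, Tfeb, fell by 4h over 0h, against 42.5% and 42.7% of all tested genes. Scaled to reads in listed genes the counts became 5 and 3. Nfkbiz, which encodes the inflammatory coactivator IkB-zeta, rose by 5.06 ± 0.06, Nlrp3, an inflammasome sensor, by 2.97 ± 0.084, and Atf3, a stress factor, by 2.62 ± 0.097. Nfkbiz averaged 1.38 RPKM at 0h, near the pseudocount of 1 RPKM, which makes its rise look smaller. Between 8h and 16h 6 of 10 fell, with Nlrp3 at -1.78 ± 0.084 and Atf3 at -1.67 ± 0.097, and 1 rose, against 34.2% and 36.1% of all tested genes (6 and 3 scaled to reads in listed genes). With lactic acid at 8 h 5 of 10 rose and 3 fell, against 32.1% and 36.0% of all tested genes. At 16 h with lactic acid 9 of 10 rose and 0 fell, against 30.2% and 31.0% of all tested genes. Nlrp3 was there at 0.62 ± 0.084 and Nfkbiz at 0.58 ± 0.06. The tenth was Ldha, the A chain of lactate dehydrogenase, at 0.02 ± 0.089 (limma adjusted p = 0.83). At 24 h 7 rose and 0 fell, against 25.5% and 21.7%, led by Atf3 at 1.34 ± 0.097 and Aldoa, a glycolytic aldolase, at 0.76 ± 0.079, and scaled to reads in listed genes 5 rose and 1 fell.

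The TCA cycle genes around itaconate moved little beside Acod1. Of 25 genes 16 rose and 4 fell by 4h over 0h, against 42.5% and 42.7% of all tested genes. Idh3a, a subunit of mitochondrial isocitrate dehydrogenase, rose by 1.32 ± 0.081, Dlst, of the oxoglutarate dehydrogenase complex, by 0.97 ± 0.045, and Mdh2, mitochondrial malate dehydrogenase, by 0.74 ± 0.067. Slc25a1, the citrate carrier, fell by 0.43, Slc25a11, the oxoglutarate carrier, by 0.35, and Sdha, the flavoprotein of succinate dehydrogenase, by 0.25. Outside the list, Idh1, the cytosolic isocitrate dehydrogenase, fell by 1.67. Scaled to reads in listed genes the counts turned to 4 higher and 17 lower.

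With lactic acid at 8 h, 4 of the 25 TCA genes rose and 10 fell, against 32.1% and 36.0% of all tested genes. Scaled to reads in listed genes these counts became 7 and 9. At 16 h with lactic acid, 5 of the 25 rose and 12 fell, against 30.2% and 31.0% of all tested genes. Slc25a10, the dicarboxylate carrier, rose by 0.41 ± 0.069 and Ogdh by 0.40 ± 0.068, and Sdha by 0.24 ± 0.053, while Idh3a fell by 0.52 and Fh1, fumarase, by 0.47. At 24 h 6 rose and 3 fell, no larger a share than the 25.5% and 21.7% of all tested genes, with Clybl, which breaks down a product of itaconate, at 0.50 ± 0.096, Mpc1, a pyruvate carrier subunit, at 0.46 ± 0.071 and Idh3a at -0.46 ± 0.081, and scaled to reads in listed genes 2 rose and 11 fell. With only these 2 groups in the fit 2 rose and 1 fell, and without replicate 4 of 24h 11 rose. Clybl had also risen between 8h and 16h, by 0.98 ± 0.096, a step in which 10 TCA genes rose and 1, Slc25a10, fell, against 36.1% and 34.2% of all tested genes.

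NRF2 and its targets were split at 4h, as all tested genes were, and most rose between 4h and 8h. Of 20 genes, 9 rose and 6 fell by 4h over 0h, against 42.5% and 42.7% of all tested genes. Slc7a11, the cystine importer, rose by 3.72 ± 0.094, Txnrd1, thioredoxin reductase, by 2.05 ± 0.091 and Gsr, glutathione reductase, by 1.65 ± 0.084. Osgin1 fell by 2.02, Nqo1, a quinone reductase, by 0.75 and Ftl1, the ferritin light chain, by 0.53. Nfe2l2, the gene of NRF2, differed by 0.26 ± 0.048, which became -0.26 when libraries were scaled to reads in listed genes, and the counts then became 4 and 13. From 4h to 8h, while Acod1 stayed near its maximum, 16 of 20 rose and 1 fell, against 34.8% and 36.9% of all tested genes. Hmox1, heme oxygenase 1, led with 3.54 ± 0.109 (6265.4 ± 249.0 RPKM at 8h, 539.1 ± 63.1 at 4h, SD, n = 4 each), followed by Osgin1 with 2.67 ± 0.093. The 1 that fell was Nfe2l2, by 0.39.

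Between 8h and 16h 8 of the 20 rose and 10 fell, against 36.1% and 34.2% of all tested genes, with Slc7a11 at -1.84 ± 0.094 and Txnrd1 at -1.58 ± 0.091. With lactic acid at 8 h 1 of the 20, Nfe2l2, rose and 6 fell, against 32.1% and 36.0% of all tested genes. Neither was a larger share. Nqo1 differed there by -0.53 ± 0.133. At 16 h with lactic acid 8 rose and 1 fell, against 30.2% and 31.0%. Slc7a11 rose by 0.88 ± 0.094, Hmox1 by 0.54 ± 0.109 and Nfe2l2 by 0.33 ± 0.048. At 24 h 10 rose and 1 fell, against 25.5% and 21.7%, with Slc7a11 at 0.85 ± 0.094, Nqo1 at 0.64 ± 0.133 and Gclc, a subunit of the first enzyme of glutathione synthesis, at -0.57 ± 0.085, and scaled to reads in listed genes 8 rose and 5 fell. Of the 4 genes listed for export and use of itaconate, 3 were tested. Rab32, a small GTPase through which itaconate reaches Salmonella vacuoles in mouse macrophages, rose at 4h by 1.90 ± 0.06, fell between 8h and 16h by 1.07, and was lower at LA 8h than at 8h by -0.59 ± 0.06. Abcg2, an exporter, and Hps4, a partner in activating Rab32, fell at 4h by 0.49 and 0.85.

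**Figure D3:**
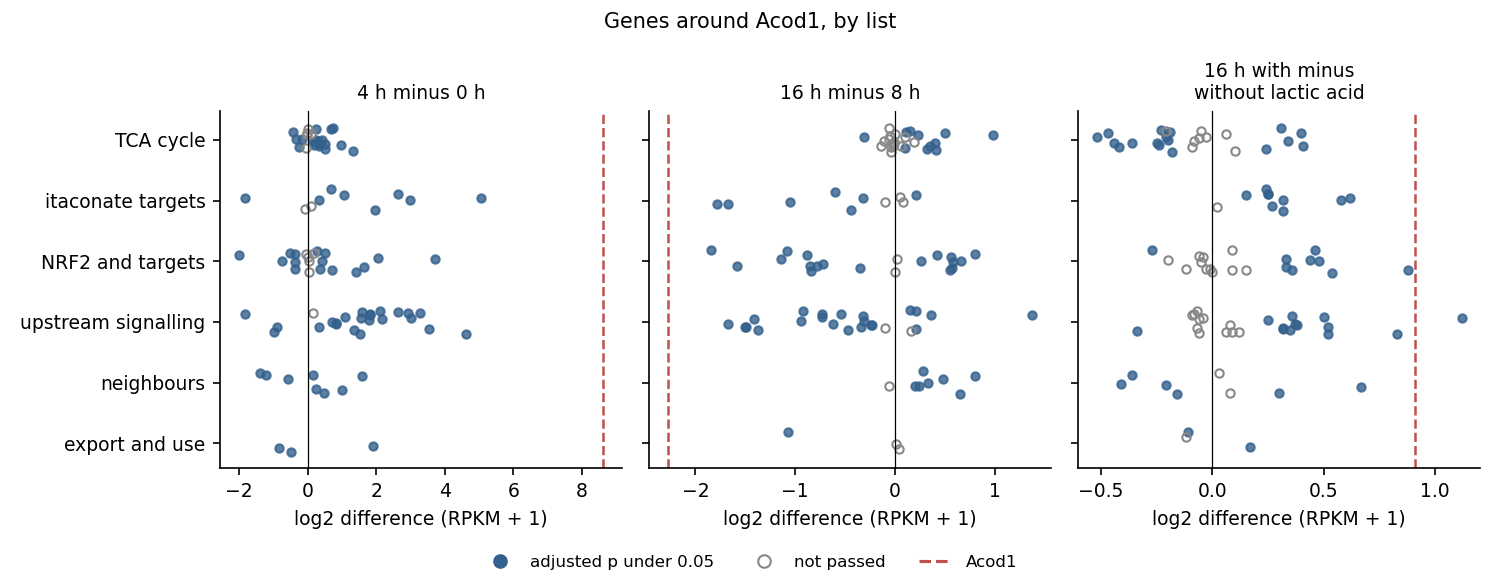
Log2 difference of each tested gene of the 6 lists around Acod1 (points) at 4h minus 0h, 16h minus 8h and LA 16h minus 16h; filled points passed limma at an adjusted p under 0.05, open points did not, and the dashed line is Acod1. Acod1 lies beyond every listed gene at 4h (8.63) and at 16h (-2.28), and at LA 16h (0.91) only Cd14 lies beyond it.

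In chromatin, the start of Acod1 carried one of the strongest H3K18la peaks of M1 cells and no H3K18la peak in M0 cells. The M1 H3K18la peak ran over 5009 bases, chr14:103045336-103050344, from -1.68 to 3.33 kb relative to the start, and covered 34.9% of the gene and all of the 250 bases printed above. Its fold enrichment, the authors' own value as are all others given for peaks here, was 18.3, with a -log10 q of 80.1. By fold it stood 15th of 16139 peaks of that list, whose median was 4.16. The peak also holds the start of Gm41235, a minus-strand long noncoding RNA, at 1.73 kb, so it cannot be assigned to Acod1 alone. In M0 no H3K18la peak touched the gene, and the nearest ended at -9.21 kb and began at 11.51 kb from the start.

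H3K18ac covered the start in both states. In M1 the peak was 29074 bases wide, chr14:103022860-103051933, began at -24.15 kb from the start, had a fold of 9.32 and stood 147th of 42237 peaks by fold and 250th by width. In M0 the peak was 7328 bases wide, chr14:103044134-103051461, with a fold of 3.55, and stood 27271st of 41493 peaks by fold. It had a -log10 q of 3.67 and was lost when only peaks with a q of at most 1e-05 were kept. Places within lists of different lengths show no change between states.

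Upstream, both regions with M1 H3K18la peaks nearest to the start, at -15.18 to -11.30 kb and -9.99 to -7.57 kb from it, were also marked in the other 3 lists, and in M1 H3K18ac they were merged with the start. The more distant had a fold of 9.51 in M1 H3K18la (3879 bases) and 6.71 in M0 H3K18la (1386 bases). It holds the start of another minus-strand long noncoding RNA, 4933432I03Rik, at -13.21 kb. The nearer had a fold of 6.52 in M1 H3K18la (2431 bases) and 4.42 in M0 H3K18la (416 bases).

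**Figure D4:**
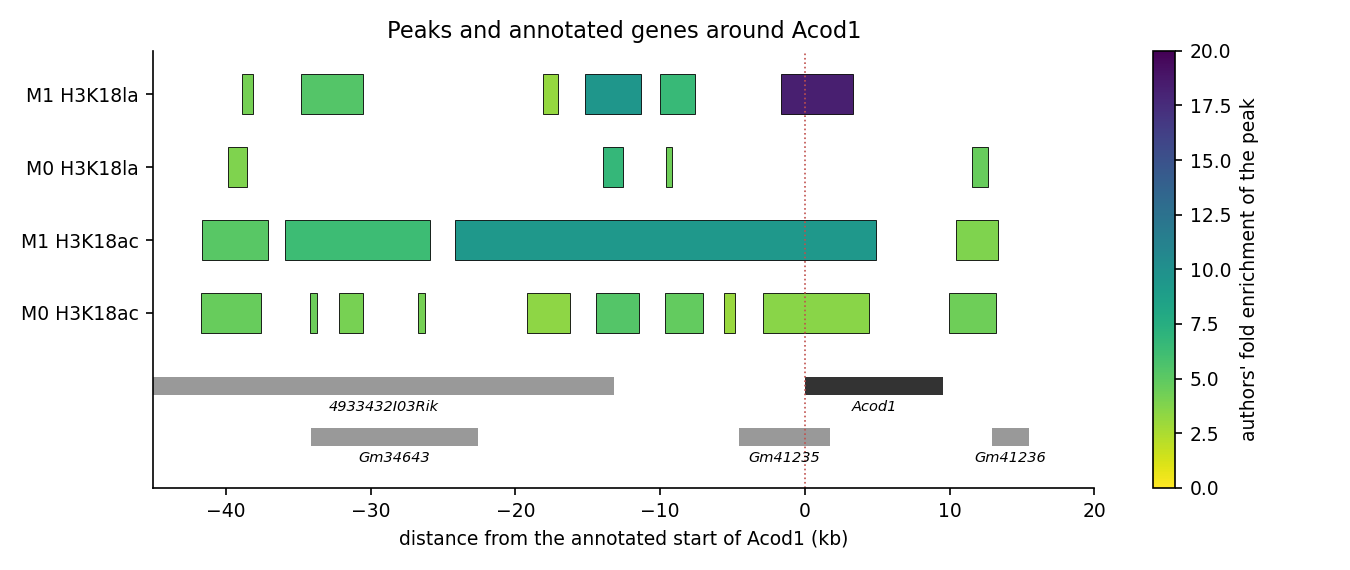
Peaks of the 4 lists (rows) and annotated genes by distance from the start of Acod1 in kb, coloured by the authors' fold enrichment; bars that pass the plot edges are clipped. The M1 H3K18la peak at the start has a fold of 18.3, M0 H3K18la has none there, and the M1 H3K18ac peak spans 29074 bases.

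Against other genes the pattern of a start with H3K18la in M1 and not in M0 was uncommon. Of 7823 tested genes with a RefSeq promoter entry, 76.7% had an M1 H3K18la peak and 92.8% an M0 H3K18la peak within 1 kb of the start. An M1 peak without an M0 peak was found at 87 genes (1.11%), Acod1 among them, and the reverse at 1345 (17.2%). Among the 5999 genes with an M1 H3K18la peak at the start Acod1 stood 11th by fold, with a median of 4.80. An H3K18ac peak was present at the start of 92.6% of genes in M1 and 94.8% in M0. Each ChIP state is 1 library, so these values have no replicate check. The libraries held 21.0 M mouse reads in M1 and 21.8 M in M0 for H3K18la, and 32.9 M in M1 and 36.6 M in M0 for H3K18ac. Spike-in reads numbered 6.74 per 1000 mouse reads in M1 and 14.2 in M0 for H3K18la, and 1.53 in M1 and 1.43 in M0 for H3K18ac. The peak lists were used as deposited, and the part of this difference in spike-in was not tested.

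Of the genes most like Acod1 in RNA, the 3 looked at did not share this pattern at the start. Only 1.11% of the 7823 genes hold it, so its absence at 3 genes does not set them apart from other genes. Ehd1 had no RefSeq promoter entry, and the rest of the genes most like Acod1 were not looked up. Socs3 had H3K18la peaks within 1 kb in both states, with a fold of 5.56 in M1 and 4.82 in M0. Il1b had none in either state, with H3K18ac folds of 3.68 in M1 and 4.2 in M0. Clec4e, a receptor for mycobacterial glycolipid, had none in M1 and one with a fold of 4.81 in M0. Irf1, which is not among them, had peaks in both, with a fold of 12.5 in M1 and 8.43 in M0. The M1 chromatin was taken at 24 h, when the Acod1 transcript stood at 8.87% of its 4h mean and 39.7 times its 0h mean.

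Neighbouring genes on chromosome 14 took courses of their own. Of 11 genes listed around it 8 were tested, and 5 rose and 3 fell by 4h over 0h, against 42.5% and 42.7% of all tested genes (2 and 5 scaled to reads in listed genes). Kctd12, an auxiliary subunit of GABA-B receptors, whose gene has its near edge at -64.38 kb from the start of Acod1, rose by 1.59 ± 0.169 at 4h and fell again between 4h and 8h by 1.47. Tbc1d4, a Rab GTPase-activating protein, fell by 1.39 at 4h. In the step from 8h to 16h 7 of the 8 rose and 0 fell, against 36.1% and 34.2% of all tested genes. With lactic acid, Kctd12 was higher at 16 h by 0.67 ± 0.169 and lower at 24 h by -0.92 ± 0.169. A long noncoding RNA on the minus strand, Gm41235 (chr14:103042475-103048740), overlaps the start of Acod1. It was not analysed here, and since the strand setting of the counting is not given in the sources used here, reads from it cannot be told apart from those of Acod1 within the overlap.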

How the data were processed

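Acod1 and the genes around it were read from a table of RNA-seq values for 32 libraries in 8 groups and from 4 broad peak lists, and groups were taken from the sample labels. The authors deposited RPKM, scaled by them to an effective library size, together with their own log2 fold changes over 0h and a mean level on the log2 scale. Per the submitters' processing notes, HISAT2 2.1.0, Bowtie2 2.2.6, SAMtools 0.1.19, featureCounts 1.5.0-p1 and MACS2 2.2.1 were used, with build GRCm38 (mm10). The peak lists carry the authors' ratio (fold enrichment), -log10 p and -log10 q per peak, and the lowest -log10 q in any list was 2.01. The threshold and control of the peak calls are not given in the sources used here. The authors also deposited read counts per ChIP-seq library, for the mouse and the spike-in genome.

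A count test had been planned, but RPKM are not counts, so log2(RPKM + 1) was fitted with limma 3.58.1 (R 4.3.3) with an intensity trend, a mean for each group over all 32 libraries, and 24 residual degrees of freedom. The filter was 1 RPKM or more in 4 or more libraries, which left 9942 of 11184 genes, and a gene was called at a Benjamini-Hochberg adjusted p under 0.05 over all of them. The deposited table holds a selected set of genes, so shares called are shares of that set. Whole reads were recovered from RPKM times length: 99.98% of values were whole within 0.05, which gave the depth of each library. On these reads limma-voom was run as an alternative chosen after seeing the data. Python 3.11.15, pandas 2.3.3 and matplotlib 3.10.9 were used otherwise. The fit was also run on simulated data with independent noise and few changed genes. In the real data most tested genes were called at 4h, so that run does not check the calls made here.

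Acod1, the gene lists and the tests were chosen with earlier results of these data known. The genes named are, per list, up to 3 called members per direction with the largest change at 4h over 0h and up to 2 per direction in later and lactic acid comparisons. Nos2, Il1b, Irf1, Sdha, Idh1, Hmox1, Nfe2l2 and Kctd12 are always named (a few other genes are not reported here), and the 10 genes of highest Pearson r with Acod1 are named for likeness. Ldha was named after its value was seen. The comparisons over time share the 0h, 4h, 8h and 16h libraries with each other. A peak was counted at a gene's start when it touched 1000 bases on either side of the RefSeq start (GRCm38.p6), for the 7823 tested genes with an entry in the RefSeq promoter table. The alternatives tried were the pseudocount, the filter, the samples in the fit, a replicate block, the scaling, a length trend, leaving out each replicate, and, for peaks, the window, overlap and q.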

Additional observations from a re-analysis of the deposited data

Results flagged for a closer look

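In 72 sets of a gene and a group of 4 libraries, 5 held a library that stood apart from the other 3 by Dixon's test, where chance gives about 1 in 20. The number of such sets is near what chance alone gives. The 5 libraries are therefore listed as a description, and none is taken as faulty. Acod1 itself was among them: replicate 2 of LA 24h had 398.6 RPKM and the other 3 had 481.9 to 485.3 RPKM, a gap of 0.961 of the whole range. Nos2 had 11.1 RPKM in replicate 4 of 16h and 7.40 to 7.85 RPKM in the others, a gap of 0.877. Il1b had 0.752 RPKM in replicate 2 of 0h and 0.581 to 0.599 RPKM in the others, a gap of 0.896. It had 2102.0 RPKM in replicate 1 of 4h and 1986.1 to 1997.9 RPKM in the others, a gap of 0.898. Sdha had 43.6 RPKM in replicate 1 of LA 8h and 46.4 to 46.5 RPKM in the others, a gap of 0.967. Without replicate 2 of LA 24h the log2 difference of Acod1 at LA 24h from 24h was 0.72, against 0.65 with it.

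The lactic acid difference at 24 h was tested against that at 8 h in the limma model. It was larger at 24 h for Nos2 by 2.16 ± 0.178 on the log2 scale (limma adjusted p = 1e-10) and for Il1b by 1.94 ± 0.307 (limma adjusted p = 4.5e-06). For Hmox1 it was larger by 0.46 ± 0.154 (limma adjusted p = 0.011) and for Irf1 by 0.25 ± 0.095 (limma adjusted p = 0.023). It was smaller for Sdha, at -0.65 ± 0.075 (limma adjusted p = 5e-08), and for Kctd12, at -1.24 ± 0.238 (limma adjusted p = 5.6e-05). Of all tested genes, 62.5% passed this test, so passing it was common.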

How the results depend on the processing

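Acod1 kept its direction under every alternative run in the comparisons over time and in LA 16h and LA 24h. Its log2 differences at 4h and 8h from 0h were 8.80 and 8.54 with a pseudocount of 0.1. Scaled to reads in listed genes, they were 8.15, 7.94, 5.75 and 4.70 at 4h, 8h, 16h and 24h, with 0.08 at LA 8h, 0.44 at LA 24h and 0.36 for the lactic acid difference at 24 h minus 8 h. With voom on recovered reads, chosen after seeing the data, they were 8.82, 8.56, 6.28 and 5.32. With the length trend removed, LA 8h was at 0.10 and the 24 h minus 8 h difference at 0.53. Leaving out 1 replicate gave 8.57 to 8.72, 8.31 to 8.46, 6.03 to 6.18 and 5.07 to 5.23 over 0h. It gave -0.28 to -0.23, -2.32 to -2.24 and -1.0 to -0.91 in the later steps, and -0.03 to 0.02, 0.86 to 0.95 and 0.61 to 0.72 at LA 8h, LA 16h and LA 24h, with 0.62 to 0.73 for the 24 h minus 8 h difference.

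Counts over the 6 lists moved most with scaling. Scaled to reads in listed genes they were 35 higher and 43 lower at 4h over 0h (57 and 18 as reported), 37 lower at 8h (21), 35 lower at 16h (20), 33 higher and 43 lower at 24h (57 and 19), and 31 lower in the step to 24h (20). LA 24h had 19 higher and 32 lower (35 and 11), and the 24 h minus 8 h difference 24 and 35 (41 and 16). Over all tested genes scaling gave 2331 higher and 6444 lower at 4h (4228 and 4248), 2199 and 6472 at 8h (4044 and 4181), 2081 and 6159 at 16h (3964 and 3669), and 1681 and 6698 at 24h (3966 and 3713). It gave 1038 and 4682 at LA 24h (2532 and 2153) and 1670 and 4827 for the 24 h minus 8 h difference (3253 and 2956). With only the groups compared in the fit, the step to 24h gave 8 higher and 12 lower in the lists and 1320 and 1365 over all genes, and LA 24h gave 20 and 4, and 1256 and 1001. At LA 16h the lists' lower count lay between 12 and 23 when 1 replicate was left out, with 12 without replicate 2 of 16h (19 as reported). The cause of these shifts was not tested.

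Scaling turned Nfe2l2 at 4h to -0.26 and the 24 h minus 8 h difference of Irf1 to -0.03. That of Irf1 also no longer passed without replicate 1 or 3 of 8h or replicate 3 of LA 8h (0.22 each) or replicate 1 of LA 24h (0.20), and that of Hmox1 not with the length trend removed (0.26). With 5 kb added on each side of Acod1, M0 H3K18la had 1 peak, M1 H3K18ac 2 and M0 H3K18ac 3. At a q of at most 1e-05 M0 H3K18ac had 0 peaks over the gene, and 2594 genes had an M0 but no M1 H3K18la peak at the start. By Spearman's rho 0 of the 10 most similar genes were shared.

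In no pair of groups compared here did all 4 same-numbered replicates deviate together with a correlation above 0.1. At 4h and 0h, for example, it lay between -0.138 and 0.176. LA 16h and 24h, which were not compared, had 0.152 to 0.431. With the replicate number as a block, Acod1 differed by 8.63 at 4h, 4222 genes were higher and 4242 lower there, and no named gene changed its call.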
